A study of Homo sapiens with 8 samples.

Results

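The early phase of erythroid induction was examined in K562, a leukaemia line of human origin whose cells can take on red cell features. That phase was taken as the arrays of days 2, 4 and 6 of induction, set against 1 array of uninduced cells on day 0, which makes 4 of the 8 arrays of the time course. All 207 features on the arrays were used, and 67 of them carried a microRNA gene symbol. Induced cultures stood in serum-free StemLineII medium with the cytokines erythropoietin (7.5 U/ml) and interleukin 3 (50 ng/ml), whereas the day 0 cells had not been stimulated. The labels say that cells were moved to the serum-free medium before induction but not in which medium the day 0 cells were collected, so medium and cytokines cannot be told apart here. Each day had 1 array labelled with Cy3, and nothing in the labels says that the days came from separate cultures. The extraction protocol names CD34 cells while every other label names K562.

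MicroRNAs are short RNAs that lower the output of the messenger RNAs they pair with, and the pairing is set mainly by the seed, which spans bases 2 to 8. MicroRNAs with a common seed form a family and can act on overlapping targets. MicroRNAs of the let-7 family are known to be higher in adult than in fetal red cells, the miR-15 family acts on cell cycle and survival genes, and the cluster of the noncoding gene MIR17HG serves proliferation under MYC. The best known red cell microRNAs, miR-144 and miR-451, were not among the 67 named features, so the red cell identity of the cultures was not checked through them. The 140 features without a symbol may include these and further members of the families and lists below.

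The mature sequences below belong to the genes that the results turn on, and they were taken from RefSeq on GRCh38.p14. At least 1 mature sequence was found there for 65 of the 67 named genes. A symbol on these arrays names the gene and not the arm, so the arm shown is the one by which the family is known. Capitals mark the seed. The let-7 family is shown first because all 7 of its named members lay above day 0 on the array of day 2. Of all 207 features, 109 did so.
let-7b-5p: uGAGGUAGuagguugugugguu
let-7c-5p: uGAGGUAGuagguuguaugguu
let-7d-5p: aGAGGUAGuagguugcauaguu
let-7e-5p: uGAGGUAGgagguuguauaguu
let-7g-5p: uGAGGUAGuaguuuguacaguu
let-7i-5p: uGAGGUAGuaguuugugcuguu
miR-98-5p: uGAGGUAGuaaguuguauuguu
Any 2 of these differed at 1 to 6 of their 22 bases, and let-7b and let-7c at 1. How far such spots share signal was not tested.

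The next set holds microRNAs whose 3 induced arrays all lay on one side of day 0. Within it, miR-23a and miR-23b have the same seed and differ at 1 of the 21 bases they can be compared over.
miR-23a-3p: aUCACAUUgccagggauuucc
miR-23b-3p: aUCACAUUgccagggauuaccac
miR-26b-5p: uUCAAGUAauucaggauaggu
miR-96-5p: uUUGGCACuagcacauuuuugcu
miR-29a-3p: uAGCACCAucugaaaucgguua
miR-95-3p: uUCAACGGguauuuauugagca
Mature miR-26b-5p lies at chr2:218402657-218402677 on the plus strand, within the span of the phosphatase gene CTDSP1. Mature miR-23a-3p lies at chr19:13836595-13836615 on the minus strand, within the span of the noncoding host gene MIR23AHG.

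The last set holds microRNAs of shared seed that are set side by side below, some of which differed from each other between days.
miR-20a-5p: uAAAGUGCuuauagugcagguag
miR-93-5p: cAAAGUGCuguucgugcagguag
miR-25-3p: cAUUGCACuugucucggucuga
miR-32-5p: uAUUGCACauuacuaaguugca
miR-15a-5p: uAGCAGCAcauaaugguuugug
miR-15b-5p: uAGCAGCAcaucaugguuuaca
miR-424-5p: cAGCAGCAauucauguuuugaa
Here miR-20a and miR-93 differed at 4 of 23 bases, miR-25 and miR-32 at 9 of 22, and miR-15a and miR-15b at 4 of 22.

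Levels are given on a log2 scale after background correction and quantile normalization, which gives every array the same spread of values, and each is the mean of 3 spots of a feature. Before normalization the arrays differed: the median spot lay 112 units of Cy3 intensity above the dimmest spot at day 0 and 261, 312 and 131 at days 2, 4 and 6. The SD between the 3 spots of a feature was 0.13 to 0.27 (root mean square per array, log2). That SD covers spotting and reading, not cultures. As a guide to signal without expected expression, 6 markers of foreign tissues among the named features were used. They were MIR429 of epithelia, MIR375 of pancreatic islets, and MIR371A, MIR372, MIR373 and MIR367 of embryonic cells. Their highest level was 7.44 on day 0 and 7.30, 6.85 and 7.28 on days 2, 4 and 6, and 47 features, 18 of them named, exceeded it on all 4 arrays.

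No feature passed the test of days 2, 4 and 6 together against day 0. In limma, with Benjamini-Hochberg adjustment over 207 features, 0 were called higher and 0 lower (0% each), and the lowest adjusted p was 0.464. At an unadjusted p under 0.05 there were 7 higher features (3.38%) and 9 lower ones (4.35%), of which 4 were named: MIR26B, MIR374A, MIR23A and MIR23B. The fit rests on 3 arrays of different days against 1, so its spread holds both time and array, and the day 0 array is assumed to vary like the others. An exact permutation of 1 array against 3 cannot give a p under 0.25. All differences below are therefore descriptions of these arrays.

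In 53 features (25.6%) all 3 induced arrays lay above day 0, and in another 53 (25.6%) all 3 lay below. The named features made up 15 of those above and 22 of those below, while 30 named features had induced arrays on both sides. Spots were a stricter measure: all 9 induced spots lay above all 3 spots of day 0 in 10 features (4.83%) and below them in 17 (8.21%). Among named features these were MIR95 above, and 8 below, including MIR26B, MIR23A, MIR23B, MIR374A, MIR96, MIR29A and MIR370.

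**Figure D1:**
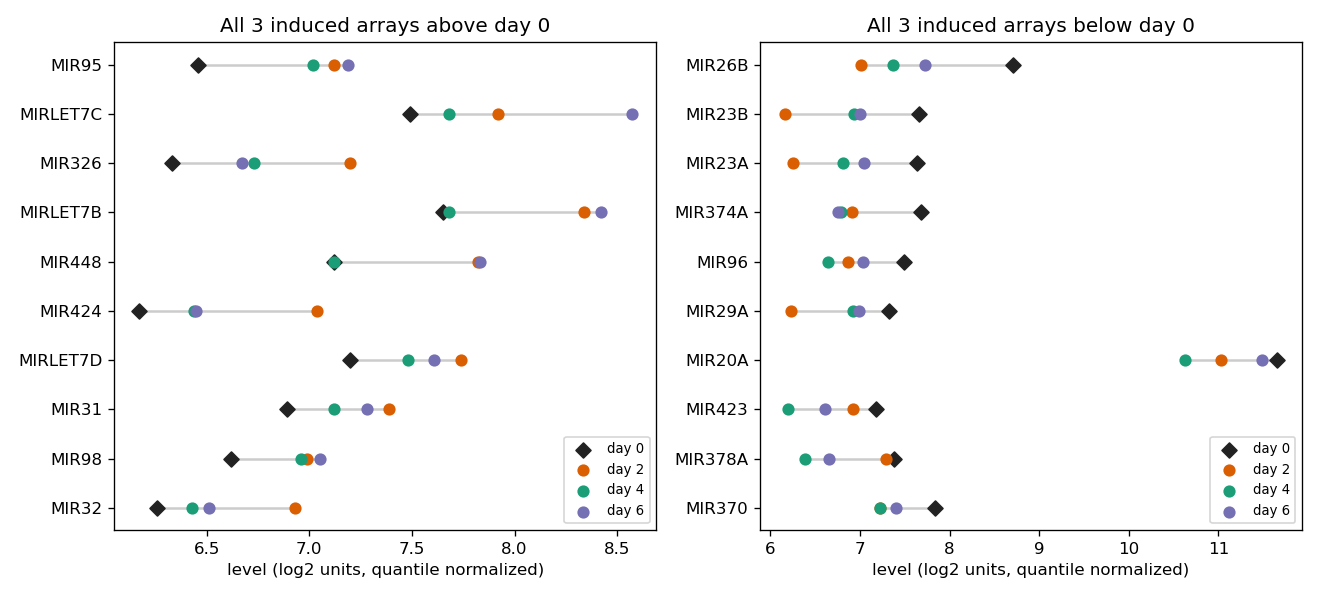
Levels of the 20 named features with the largest mean difference from day 0 among those with all 3 induced arrays on one side. The horizontal axis is the quantile-normalized log2 level, diamonds are day 0 and circles are days 2, 4 and 6; MIR26B stood at 8.71 on day 0 and between 7.01 and 7.73 afterwards.

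After quantile normalization MIR26B had the largest mean difference from day 0 of any named feature, whereas under the 3 other scalings that of MIR20A was larger. It lies in the gene of CTDSP1, a small phosphatase that acts on RNA polymerase II. Its level was 8.71 on day 0 and 7.01, 7.37 and 7.73 on days 2, 4 and 6. Day 0 was the highest array, by 0.98 over the next, and the 3 later arrays were in order of time. The mean of the induced arrays minus day 0 was -1.34 ± 0.37 (SE, 3 arrays against 1, limma adjusted p = 0.464). Before normalization MIR26B lay 404 ± 53.7 units above the dimmest spot at day 0 and 250 ± 103, 403 ± 18.0 and 212 ± 18.5 at days 2, 4 and 6 (SD, n = 3 spots). Its raw signals on days 0 and 4 thus differed by less than the spot SD, while the median spot of the array had gone from 112 to 312 units.

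MIR23A and MIR23B, paralogs from separate chromosomes, had the same outline. MIR23A stood at 7.64 on day 0 and 6.25, 6.81 and 7.04 on days 2, 4 and 6. MIR23B stood at 7.66, 6.16, 6.93 and 7.00 on the same days. In both, day 2 was the lowest array and days 4 and 6 lay between day 2 and day 0. The mean differences from day 0 were -0.94 ± 0.38 for MIR23A and -0.96 ± 0.41 for MIR23B (SE, limma adjusted p = 0.61 for each). On days 2, 4 and 6 both were at or below the highest level of the foreign markers of the same array, apart from MIR23B at 6.93 against 6.85 on day 4. Their sequences differ at 1 base, and how far their spots share signal was not tested.

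MIR374A, a microRNA of the X chromosome, was 7.68 on day 0 and then 6.91, 6.79 and 6.76 on days 2, 4 and 6. The 3 induced arrays lay within 0.15 of each other, and the mean difference was -0.86 ± 0.31 (SE, limma adjusted p = 0.464). MIR96, known as a repressor of gamma-globin, was 7.49 on day 0 and 6.87, 6.64 and 7.03 later, a mean difference of -0.64 ± 0.32 (SE, limma adjusted p = 0.687). MIR29A, a repressor of collagen and DNA methyltransferase genes, was 7.32 on day 0 and 6.23, 6.92 and 6.99 on days 2, 4 and 6. Day 2 was again the lowest array of MIR29A. On days 2, 4 and 6 MIR374A and MIR96 were under the highest foreign marker of the same array, and MIR29A was so on days 0, 2 and 6. The named features of this side with the next largest differences, MIR20A apart, were MIR423 at -0.60, MIR378A at -0.60 and MIR370 at -0.56, with levels between 6.20 and 7.40 on the induced days. MIR423 and MIR378A stayed under the highest foreign marker on all 4 arrays.

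MIR95 had the largest mean difference among named features above day 0. Its level was 6.46 on day 0 and 7.12, 7.02 and 7.19 on days 2, 4 and 6, so the induced arrays lay within 0.17 of each other. The mean difference was 0.65 ± 0.31 (SE, limma adjusted p = 0.653). In raw units it lay 71.0 ± 15.1 above the dimmest spot at day 0 and 271 ± 79.7, 300 ± 13.1 and 143 ± 15.0 at days 2, 4 and 6 (SD, n = 3 spots). On day 2 and on day 6 it was still under the highest foreign marker, at 7.30 and 7.28.

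The let-7 family, which represses growth genes such as HMGA2 and LIN28B, had 7 named members. All 3 induced arrays lay above day 0 in 6 of them, against 25.6% of all features, and 0 passed the test. Of these 6, MIRLET7I cleared day 0 by 0.00371 on day 6 and MIRLET7B and MIRLET7G by 0.03 on day 4, less than their spot SD. By more than 0.1 on each induced array it was 3 of 7 members, against 19.3% of all features. The count of 6 became 7 without normalization, 5 with median centring and 2 with 75th percentile scaling. The median of their mean differences was 0.38, against 0.01 over all features, and it was 0.90 without normalization, 0.25 with median centring and 0.09 with 75th percentile scaling. All 7 lay above day 0 at day 2, and 6 did at day 4 and at day 6. Of all 207 features, 109, 104 and 97 did so on days 2, 4 and 6. MIRLET7C stood at 7.49 on day 0 and 7.92, 7.68 and 8.57 on days 2, 4 and 6. MIRLET7B stood at 7.65, 8.34, 7.68 and 8.42. The pair, 1 base apart, had the same outline, with day 4 close to day 0 and day 6 highest.

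MIRLET7D was 7.20 on day 0, and 7.74, 7.48 and 7.61 on days 2, 4 and 6. MIR98, the X-linked member, was 6.62 and then 6.99, 6.96 and 7.05. Both lay below the highest foreign marker on day 0, and MIR98 also on days 2 and 6. MIRLET7I had its highest level on day 2, at 9.00, against 8.34 on day 0, 8.50 on day 4 and the same 8.34 on day 6. MIRLET7G was likewise highest on day 2, at 8.52, against 8.09, 8.12 and 8.30. MIRLET7E was the exception, at 8.12 on day 0 and 8.31, 7.86 and 8.07 on days 2, 4 and 6. The largest mean difference of the family was 0.57 ± 0.40 for MIRLET7C (SE, limma adjusted p = 0.819). Without day 6 it was 0.31, the lowest among the 4 members with the largest mean differences. The others of those 4 were MIRLET7D at 0.41, MIRLET7B at 0.36 and MIR98 at 0.35. In raw units MIRLET7C lay 152 ± 9.85 above the dimmest spot at day 0 and 364 ± 26.4 at day 6 (SD, n = 3 spots).

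**Figure D2:**
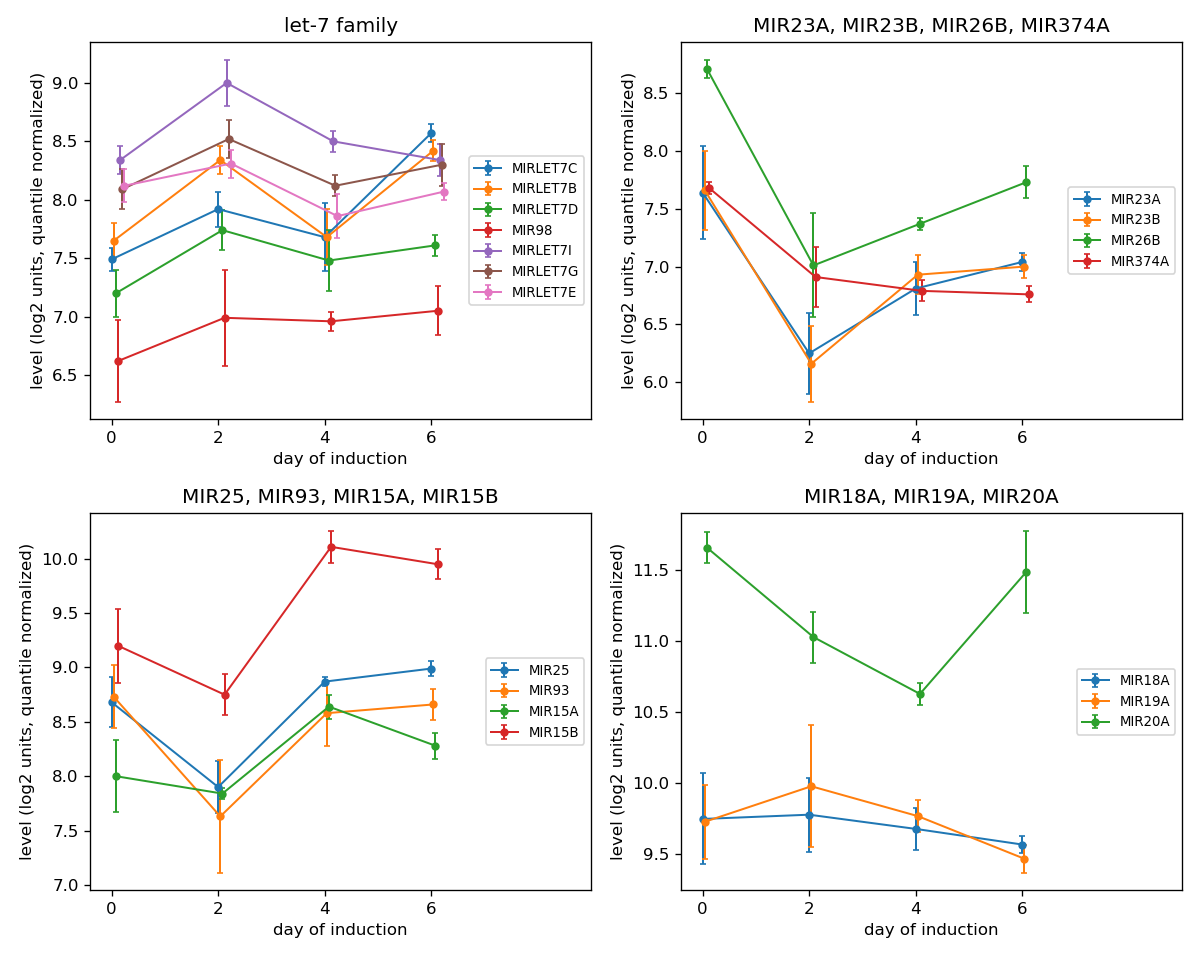
Level by day of induction for 4 groups of microRNAs, with the quantile-normalized log2 level on the vertical axis and error bars of 1 SD of the 3 spots. MIR23A and MIR23B are lowest on day 2 at 6.25 and 6.16, MIR25 and MIR93 also, and MIR15B is at 10.11 on day 4.

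Day 2 stood apart from the other arrays. Across the 207 features its correlation with day 0 was 0.834, while days 4 and 6 correlated at 0.953 and days 0 and 6 at 0.902. Day 2 was at least 0.5 above all 3 other arrays in 15 features (7.25%), day 0 in 11 (5.31%), and days 4 and 6 in 2 each (0.966%). It was at least 0.5 below all others in 20 features (9.66%), day 0 in 9 (4.35%), day 4 in 0 and day 6 in 1 (0.483%). Features at least 1 above day 0 numbered 7 (3.38%), 9 (4.35%) and 4 (1.93%) for days 2, 4 and 6, and features at least 1 below it 12 (5.80%), 4 (1.93%) and 1 (0.483%). The spot SD of day 2 was 0.27, the highest of the 4. The first of the 3 spots was brighter than the third in 8.21% of features on day 2, against 62.8% on day 0, 48.8% on day 4 and 24.2% on day 6. The part of either in these counts was not tested.

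MIR25 and MIR93, which lie next to each other within the span of the replication gene MCM7, were both lowest on day 2. MIR25 stood at 8.68 on day 0 and 7.90, 8.87 and 8.99 on days 2, 4 and 6. MIR93 stood at 8.73, 7.63, 8.58 and 8.66. After day 2 both were back within 0.31 of day 0. MIR33A, hosted by the sterol regulator gene SREBF2, went the other way, with 9.27 on day 0 and 10.13, 8.90 and 8.78 on days 2, 4 and 6. Named features on the high side of day 2 by at least 0.5 also included MIR449A, MIR379, MIR425, MIR424 and MIR384, and on the low side MIR29A, MIR23A and MIR23B. Of these, MIR379, MIR425 and MIR424 stayed under the highest foreign marker on all 4 arrays.

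The miR-15 family, whose members repress BCL2 and cyclin genes, had 3 named members. MIR15B stood at 9.20 on day 0 and 8.75, 10.11 and 9.95 on days 2, 4 and 6. MIR15A stood at 8.00, 7.84, 8.64 and 8.28. Both were slightly below day 0 on day 2 and above it on days 4 and 6. MIR424 was highest on day 2, where the others were lowest, with 6.17 on day 0 and 7.04, 6.44 and 6.45 on days 2, 4 and 6. Since MIR424 stayed under the highest foreign marker on all 4 arrays, it is not shown to be expressed. The mean differences from day 0 were 0.41 ± 0.53 for MIR15B, 0.25 ± 0.38 for MIR15A and 0.48 ± 0.36 for MIR424 (SE, limma adjusted p from 0.819 to 0.888).

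Leaving out day 2 changed the calls. With days 4 and 6 against day 0, limma called 17 of 207 features after Benjamini-Hochberg adjustment (8.21%), 10 higher (4.83%) and 7 lower (3.38%), and 4 of them were named. In that fit MIR26B had a difference of -1.16 (adjusted p = 0.003), MIR374A of -0.91 (0.018), MIR378A of -0.86 (0.0281) and MIR15B of 0.84 (0.0302), with an SE of 0.27 for each. That SE was the same for every feature, because limma's estimate of how spreads vary between features was at its limit and the SE came from the likeness of days 4 and 6 over the whole array. MIR378A was under the highest foreign marker on all 4 arrays and MIR374A on days 4 and 6, so both were read near background there. With the same 3 arrays, 0 features were called without normalization, 2 with median centring and 10 with 75th percentile scaling. All of these calls were lower, so no higher call, MIR15B included, was made under the other scalings, and MIR26B was called in the last of them only.

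The 2 brightest named features, MIR20A and MIR21, showed how far the result depends on the scale. MIR20A comes from the MIR17HG transcript, and MIR21 is abundant in many tumours. In raw units MIR20A lay 12423 ± 3699 above the dimmest spot at day 0 and 2258 ± 213, 4469 ± 29.3 and 3923 ± 75.4 at days 2, 4 and 6 (SD, n = 3 spots). It carried 20.1% of the summed signal above the dimmest spot at day 0 and 2.99%, 4.13% and 7.66% at days 2, 4 and 6. Day 0 was thus far above the 3 induced arrays in intensity and in share.

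Quantile normalization ties a level to its rank, and MIR20A ranked 1 of 207 on day 0 and 2, 4 and 1 on days 2, 4 and 6. Its normalized levels were 11.66, 11.03, 10.63 and 11.49, a mean difference of -0.61 ± 0.39 (SE, limma adjusted p = 0.819). The difference was -1.83 ± 0.71 without normalization, -2.48 ± 0.60 with median centring and -2.64 ± 0.53 with 75th percentile scaling (SE), with limma adjusted p of 0.773, 0.626 and 0.000197. Of these the last passed, in a fit that gave all features 1 SE. The fit without normalization also gave all features 1 SE. Without day 2, the mean of days 4 and 6 minus day 0 was -2.12 with median centring and -2.28 with 75th percentile scaling. Day 0 was the highest array of MIR20A under all 4 scalings. MIR21, by contrast, had raw values of 3340 ± 971 on day 0 and 1905 ± 201, 4417 ± 136 and 3791 ± 117 later (SD, n = 3 spots), on both sides of day 0. MIR18A and MIR19A, from the same transcript as MIR20A, had normalized levels of 9.75 and 9.73 on day 0 and induced levels from 9.47 to 9.98. Their mean differences were -0.08 and 0.01 after quantile normalization and 0.32 and 0.24 without normalization. They were -0.33 and -0.40 with median centring and -0.50 and -0.57 with 75th percentile scaling.

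**Figure D3:**
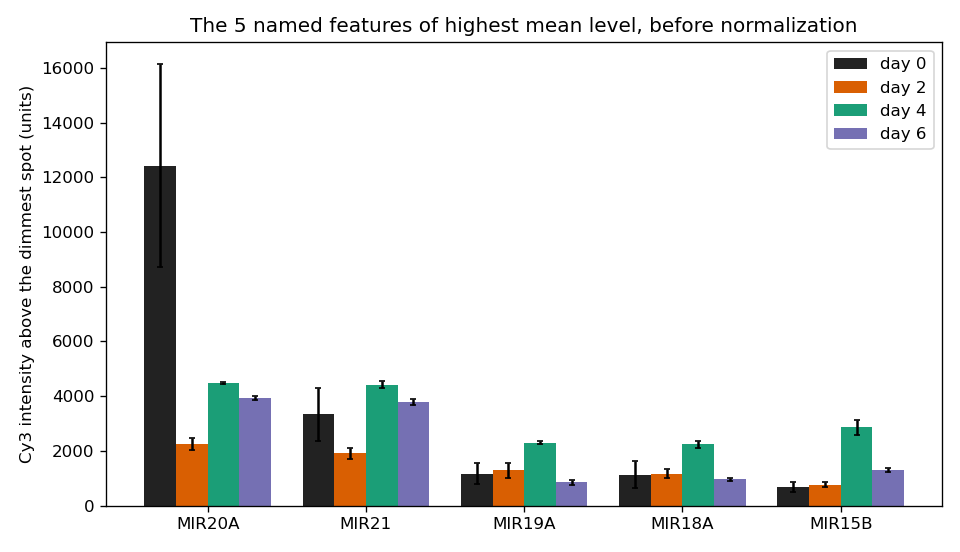
Cy3 intensity above the dimmest spot of the array, before normalization, for the 5 named features of highest mean level; bars are the mean and error bars the SD of 3 spots. MIR20A is at 12423 units on day 0 and at 2258 to 4469 on the induced days, while the other 4 have an induced day above day 0.

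The list made of the MIR17HG cluster and its paralogs had 5 named members. Of these, 2 (MIR20A and MIR93) had all induced arrays below day 0 and 0 had all above. Over all features the share was 25.6% on each side. On day 6 the differences of MIR20A and MIR93 from day 0 were -0.17 and -0.06, smaller than their spot SD of that day (0.29 and 0.14). The list median was -0.10. In the list of red cell microRNAs 4 of 15 were among the named features. MIR96 lay below day 0 on all induced arrays, and MIR15A, MIR15B and MIR22 on both sides. MIR22 was 6.81 on day 0 and 6.68, 7.05 and 7.01 later. Of a list of 10 headed by miR-221 and miR-223, which decline in red cell precursors, MIR23A and MIR28 were among the named features. Both lay below day 0 on all induced arrays, as did 25.6% of all features. For MIR28 the day 4 difference was -0.05, smaller than its spot SD of 0.17 on that day. MIR28 stood at 7.02 on day 0 and 6.36, 6.96 and 6.44 on days 2, 4 and 6. It was under the highest foreign marker on days 0, 2 and 6. In the megakaryocyte list MIR10A and MIR10B had levels from 5.98 to 6.52, under the highest foreign marker on all 4 arrays. The myeloid and lymphoid list had MIR29A, MIR342 and MIR21. MIR342 was 7.54 on day 0 and 7.77, 7.26 and 6.63 on days 2, 4 and 6. None of the members named in these lists passed the test with all 4 arrays.

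Among the other features above day 0 in the plot of named levels, MIR326 stood at 6.33 on day 0 and 7.20, 6.73 and 6.67 later, MIR31 at 6.89 and 7.39, 7.12 and 7.28, and MIR32 at 6.26 and 6.93, 6.43 and 6.51. MIR448, from an intron of a serotonin receptor gene, was 7.12 on day 0 and 7.82, 7.12 and 7.83 on days 2, 4 and 6. Its day 4 difference from day 0 was 0.01, against a spot SD of 0.33 on day 0. MIR32 has the seed of MIR25, which was lowest on day 2 where MIR32 was highest. Since MIR32 and MIR326 stayed under the highest foreign marker on all 4 arrays, neither is shown to be expressed. Of the 15 named features above day 0, 4 exceeded the foreign markers on all 4 arrays, all of them from the let-7 family (MIRLET7B, MIRLET7C, MIRLET7G and MIRLET7I). Of the 22 below, 3 did: MIR20A, MIR93 and MIR328. With unnamed features included, 11 of 53 above day 0 and 10 of 53 below did so, against 47 of all 207.

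**Figure D4:**
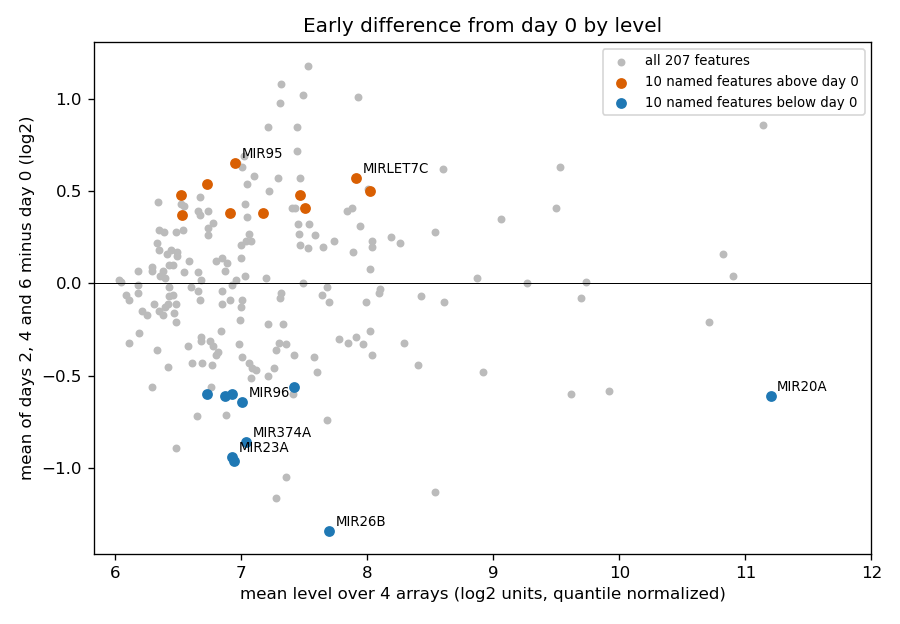
Mean of days 2, 4 and 6 minus day 0 against the mean level over 4 arrays, both log2, for all 207 features (grey), with 10 named features above day 0 in orange and 10 below in blue. Most points lie between -0.5 and 0.5, MIR26B is at -1.34 and MIR20A is the brightest named feature.

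The side of day 0 on which a feature lay was open to scaling. Over all features the median of the mean difference from day 0 was 0.01 with quantile normalization and 0.43 without any, and it was -0.21 with median centring and -0.38 with 75th percentile scaling. Of the 10 named features above day 0 in the plot of named levels, those with all 3 induced arrays still above numbered 10 without normalization, 8 with median centring and 3 (MIR95, MIRLET7C and MIRLET7D) with 75th percentile scaling. Of the 10 below, 2 (MIR26B and MIR20A) stayed below without normalization, 9 with median centring and 10 with 75th percentile scaling. The mean difference itself turned its sign for MIR370 without normalization (0.09) and for MIR32 after 75th percentile scaling (-0.06). Those 3 scalings shift all features of an array alike, so relative to the median of all features they give 1 and the same value. In that single comparison with quantile normalization all 20 features had the same sign relative to the median, and 18 of 20 had all 3 induced arrays on the same side of it. Relative to the median the let-7 family stood at 0.37 after quantile normalization and at 0.47 under the other scalings, MIR23A and MIR23B together at -0.96 and -0.93, and MIR26B at -1.35 and -1.16.

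**Figure D5:**
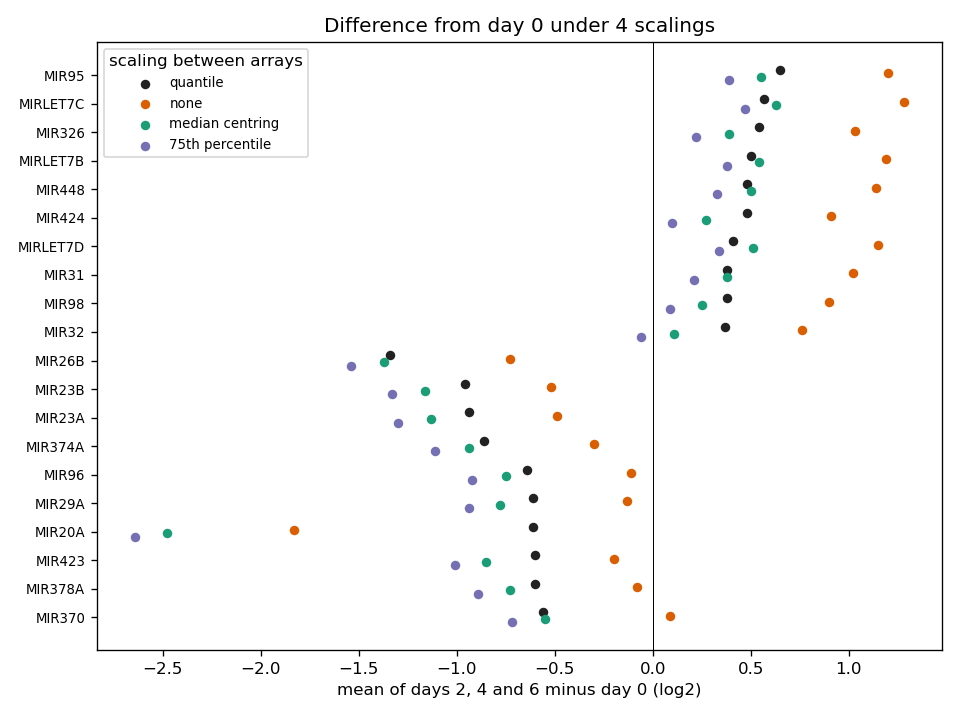
Mean of days 2, 4 and 6 minus day 0 (log2, horizontal axis) for the same 20 features under 4 scalings between arrays, 1 colour per scaling. The points without normalization sit furthest to the right for every feature but MIR20A, whose 4 values run from -2.64 to -0.61.

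The unnamed features included differences as large as those of the named ones. They are given by the first of their 3 rows in the table. The feature at row 148 was 6.64 on day 0 and 7.91, 7.81 and 7.76 on days 2, 4 and 6, a mean difference of 1.18 ± 0.31 (SE, limma adjusted p = 0.464). Those at rows 163 and 157 had differences of 1.08 and 1.02. On the other side stood the features at rows 415, 121 and 211, at -1.16, -1.13 and -1.05. In 5 of these 6 all 9 induced spots were separate from the 3 of day 0, the exception being row 121.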

How the data were processed

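The deposited values are linear Cy3 intensity with the mean of each array subtracted, judging by columns that average 0. What scanner, image software or background correction the authors used is not given in the sources used here, which leaves the zero of each array unknown. Rows numbered 621 and formed 207 features, each of 3 spots in a row. Of the rows, 201 had 1 gene symbol, 0 several and 420 none, and the 67 symbols matched RefSeq (GRCh38.p14) by gene identifier. Day 15 equalled the mean of days 10 and 22 to within 0.011 units in 621 rows and was left out. Background was handled with normexp (limma 3.58.1, R 4.3.3, offset 50), then log2, quantile normalization over 7 arrays and averaging of spots. Offset and normexp understate differences of dim features. Days 2, 4 and 6 were compared with day 0 by limma's lmFit and eBayes (2 residual degrees of freedom, Benjamini-Hochberg, threshold 0.05). The fit was run on simulated data in which day 0 had the spread of days 2, 4 and 6. That run cannot check whether the day 0 array varies like the others. The alternatives were 3 other scalings, quantile normalization over 4 arrays, a shift of the dimmest spot to 50, an offset of 16, a filter at the median level, the median of spots, a trend over days, and leaving out each induced array. Keeping day 15 in the normalization, and the fit without day 2 under other scalings, were added after seeing the data.

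Named features are the 10 per direction with the largest mean difference among those with all induced arrays on one side of day 0, the 4 with the largest range over days 2 to 6 among the others, the 5 highest mean levels, up to 4 members per list, and the foreign markers. Other names come from counts and were chosen after their values were seen. Members and lists were chosen with earlier results of these data known. Plots were made with matplotlib 3.10.9 (Python 3.11.15).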

Additional observations from a re-analysis of the deposited data

How the results depend on the processing

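No paired analysis was possible because each day has 1 array. Leaving out day 0 leaves no comparison. The number of arrays limits the precision, and a feature under the foreign markers is read near background. Against 0 features called higher and 0 lower in the limma fit, leaving out 1 induced array gave 0 to 10 and 0 to 7, the highest in each case without day 2, and 75th percentile scaling gave 0 and 1 (MIR20A, -2.64). The other alternatives gave 0 calls, with 4 to 18 features at an unadjusted p under 0.05, among them the trend over days 0 to 6 with 7. The 53 features above and 53 below day 0 became 88 and 10 without normalization, 25 and 96 after 75th percentile scaling, 32 and 25 of the 103 features above the median level, and 63 to 78 and 62 to 84 when 1 induced array was left out, which asks for agreement of 2 arrays instead of 3. Features at least 1 from day 0 numbered 19 on day 2, 13 on day 4 and 5 on day 6. These counts became 69 and 91 on days 2 and 4 without normalization, 35, 26 and 8 with median centring, 47 and 38 on days 2 and 4 with 75th percentile scaling, 25 and 11 on days 4 and 6 with quantile normalization over 4 arrays, 9, 7 and 1 with the dimmest spot shifted to 50, and 39, 32 and 22 with an offset of 16. The last 2 change how strongly dim differences are shrunk. For named features and lists, 437 of 470 values kept sign and side of the threshold, 28 changed sign and 5 passed the threshold. Without normalization the sign changed for MIR370 (0.09), MIR93 (0.17), MIR25 (0.51), MIR18A (0.32), MIR10B (0.15), MIR342 (0.38), MIR21 (-0.06), MIR381 (0.11), MIR382 (0.11), MIR450A1 (0.41) and the medians of the MIR17HG (0.24) and chromosome 14 (0.22) lists. After median centring it changed for MIR22 (-0.05), MIR10A (-0.35), MIR21 (-0.70) and MIR377 (-0.10), and after 75th percentile scaling for MIR32 (-0.06), MIR22 (-0.22), MIR10A (-0.52), MIR21 (-0.87), MIR377 (-0.26) and the red cell list median (-0.08). With the median of spots MIR22 was at -0.05, MIR10B at 0.14 and MIR10A at -0.02. Leaving out 1 induced array gave -0.30 to 0.25 for MIR25, positive without day 2, and -0.03 to 0.13 for MIR10A and -0.05 to 0.31 for MIR21, both negative without day 6. The cause of these changes was not tested.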

Other observations

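The imprinted microRNA cluster of chromosome 14 had 9 named members. Of these, 1 lay above day 0 on all induced arrays and 3 below, against 25.6% of all features on each side. Their median difference was -0.07, and 0 were called by limma with Benjamini-Hochberg adjustment, as over all features. MIR370 stood at 7.84 on day 0 and 7.22, 7.22 and 7.40 later, and MIR381 at 7.46 and 7.33, 6.80 and 6.72. MIR379 was highest on day 2, at 7.29, against 6.62 on day 0, but stayed under the highest foreign marker on all 4 arrays. On the X chromosome MIR424 was 0.48 above day 0 on average, whereas its neighbour MIR450A1 stood at 8.21 on day 0 and 8.43, 7.80 and 7.63 later.

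The later arrays of the course give the levels that followed. MIR26B was at 7.77, 7.99 and 9.53 on days 8, 10 and 22, against 8.71 on day 0. MIR23A was at 8.18, 7.75 and 6.00 on those days, MIR23B at 7.74, 7.27 and 6.13, and MIR374A at 7.27, 7.43 and 8.29. MIRLET7C and MIRLET7B, highest on day 6, were at 7.16 and 7.45 on day 8, both under their day 0 levels of 7.49 and 7.65. MIR95 was at 7.45, 7.58 and 7.44. The day 0 array is common to all of these comparisons. The arrays also differed in how the 3 spots of a feature were ordered: the first was brighter than the third in 61.4%, 79.7% and 51.2% of features on days 8, 10 and 22, against 8.21%, 48.8% and 24.2% on days 2, 4 and 6. Its part in the levels across day 8 was not tested.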
